A study of Mus musculus with 26 samples.

Results

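The 42 genes described here are core autophagy genes of the mouse, receptors that pick cargo for autophagy, and 4 genes of mitophagy. Mitophagy is the removal of mitochondria by the same route. The 42 genes form a named list, not the full set, that was chosen with earlier results of these data known. Their symbols were matched to the Ensembl identifiers of the deposited count table. All 42 were found once among the 50686 genes listed, and all 42 were among the 17286 genes that passed a filter on low counts. The libraries were rRNA-depleted total RNA from brown adipose tissue (BAT) of male C57BL/6J mice aged 12 to 16 weeks. Fat-specific Afadin knockout (FAKO) mice carry floxed alleles of Mllt4, now named Afdn, and a Cre recombinase driven by the Adiponectin promoter, so recombination is aimed at adipocytes and not at the vessels, nerves and immune cells of the depot. Control littermates, labelled WT, stand beside them. The 4 groups were WT30 (7 mice) and KO30 (7 mice), kept individually for about 2 weeks at thermoneutrality, labelled 30 °C and run in incubators set to 29 °C, and WT5 (5 mice) and KO5 (7 mice), moved to 5 °C for 6 h after the same acclimation. Each library is a different mouse, and 1 RNA sample was taken per mouse.

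Autophagy wraps part of the cytoplasm in a double membrane and delivers it to the lysosome. The ULK1 kinase complex starts the process, the class III PI3-kinase complex marks the membrane with a phosphorylated lipid, WIPI, ATG2 and ATG9 proteins enlarge the membrane, and 2 linked conjugation reactions attach proteins of the ATG8 family (LC3 and GABARAP) to it. Cargo receptors bind both the cargo and ATG8 proteins and are themselves degraded with the cargo, and mitophagy receptors do the same for mitochondria. Among its described roles in thermogenic fat, mitophagy removes mitochondria when a stimulus is withdrawn, a setting not studied here. Messenger RNA levels do not measure autophagic flux.

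Total counts per library ran from 12705969 to 25732258, and the share of counts on the mitochondrial genome from 14.26% to 40.45%. Sums of 6 brown adipocyte markers were 6363 to 8083 CPM (counts scaled to the library total and TMM factors) at thermoneutrality and 24533 to 31271 CPM at 5 °C. Adipocyte RNA was thus present in every library. In the cold 3 of the 6 markers rose, 2 fell and 1 was not called in each genotype, by the test given below. Afdn itself was not lower in KO30 (154 to 231 CPM) than in WT30 (151 to 214 CPM) and stood at 67.9 to 79.2 CPM in WT5 and 53.3 to 65.3 CPM in KO5, counted over the whole gene and not only over the floxed part, so the knockout groups are named by their labels. Skeletal muscle markers, a sign of neighbouring muscle in the dissected depot, varied from 0.772 to 7086 CPM between mice. The library of WT30 mouse 7 had the lowest mitochondrial share (14.26%) and 5230 CPM of muscle markers, and those of KO5 mice 24 and 25 had the lowest TMM factors (0.769 and 0.760) with 3560 and 7086 CPM. In bulk tissue, fewer cells of a type and less RNA per cell cannot be told apart.

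Cold moved most of these genes, in both directions. Of the 42 genes, 19 rose and 15 fell in control mice after 6 h at 5 °C, and 8 were not called (FDR below 0.05 in the quasi-likelihood test of edgeR, adjusted by Benjamini-Hochberg over every gene tested). Over all genes tested, 31.6% rose and 33.4% fell. In mice labelled Afadin KO, 21 of the 42 rose, 9 fell and 12 were not called, against 33.7% up and 34.9% down over all genes tested. The CPM of WT30 and WT5 did not overlap for 25 of the 42 genes, 15 higher and 10 lower in the cold, beside 46.4% of all genes tested. KO30 and KO5 did not overlap for 22 genes, 17 higher and 5 lower, beside 40.4% of all genes tested. The median log2 fold change over the 42 genes was 0.098 in control mice and 0.12 in knockout mice, beside medians of -0.014 and -0.026 over all genes tested. The largest rise on the log2 scale was that of Sqstm1 in control mice (1.91), and the largest fall that of Atg9b in knockout mice (-1.57).

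These counts moved with the scaling of the libraries. With the library size alone in place of TMM factors, the median fold change of all genes moved to -0.14 in control and -0.34 in knockout mice. The split of calls in knockout mice then became 13 up and 20 down, and with upper-quartile factors 18 up and 13 down. In control mice it became 14 up and 16 down, and 17 up and 16 down. Without WT30 mouse 7 and KO5 mice 24 and 25 together, 36 of the 42 genes were called in control mice (21 up, 15 down) and 29 in knockout mice (20 up, 9 down). Without all 10 libraries in which the muscle markers summed to 1000 CPM or more, the counts were 31 (18 up, 13 down) and 28 (19 up, 9 down). Beside the muscle markers, 5 endothelial markers summed to 426 to 556 CPM in WT30 and 696 to 804 CPM in WT5, and 4 RNAs that stay in the nucleus summed to 8951 to 10573 CPM and 14840 to 16273 CPM. In knockout mice the endothelial sums were 495 to 647 CPM in KO30 and 600.2 to 825 CPM in KO5, and the nuclear sums 10423 to 11779 CPM and 10340 to 13577 CPM. Of the 5 endothelial markers, 3 rose and 2 fell in each genotype. Of the 4 nuclear RNAs, 3 rose in control mice, and 2 rose and 1 fell in knockout mice. Of 5 macrophage markers, 1 rose and 3 fell in control mice, and 2 rose and 2 fell in knockout mice. Red blood cell markers summed to 233 to 1120.0 CPM in WT30, 289 to 609 CPM in KO30, 417 to 684 CPM in WT5 and 517 to 1497 CPM in KO5, and all 5 rose in the cold in knockout mice and none was called in control mice. Neutrophil markers were scarce, at 0.349 to 3.58 CPM at thermoneutrality, 3.09 to 7.66 CPM in WT5 and 3.17 to 44.2 CPM in KO5, and all 3 that were tested rose in both genotypes. The part of these differences in the changes of the 42 genes was not tested.

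**Figure D1:**
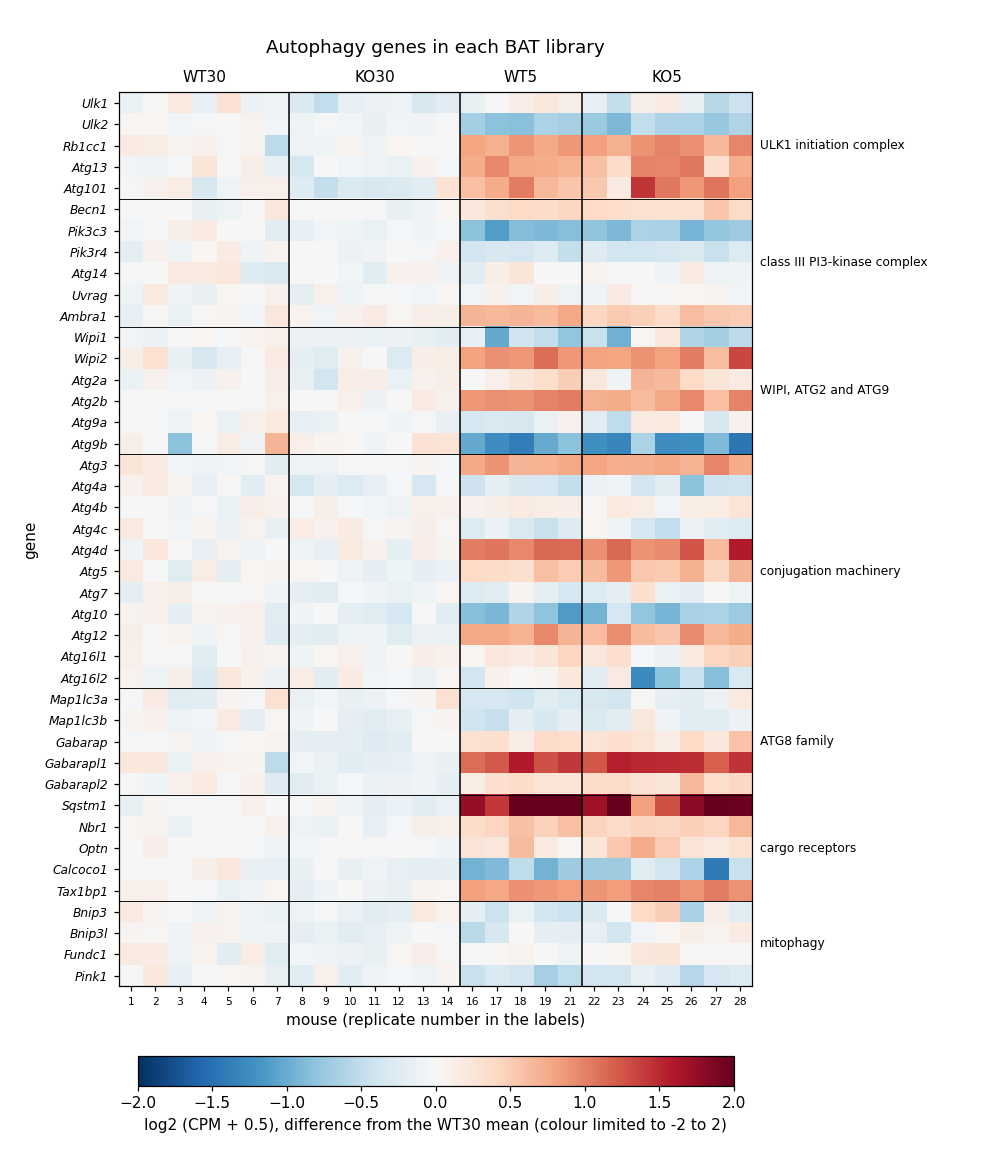
Each row is 1 of the 42 genes and each column 1 mouse, grouped as WT30, KO30, WT5 and KO5; the colour is the log2 of CPM plus 0.5 minus the mean of the WT30 mice, limited to between -2 and 2. Sqstm1 and Gabarapl1 are red in all 12 mice at 5 °C, Atg9b, Pik3c3 and Ulk2 are blue in all 12, and the KO30 columns are pale like the WT30 columns.

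**Figure D2:**
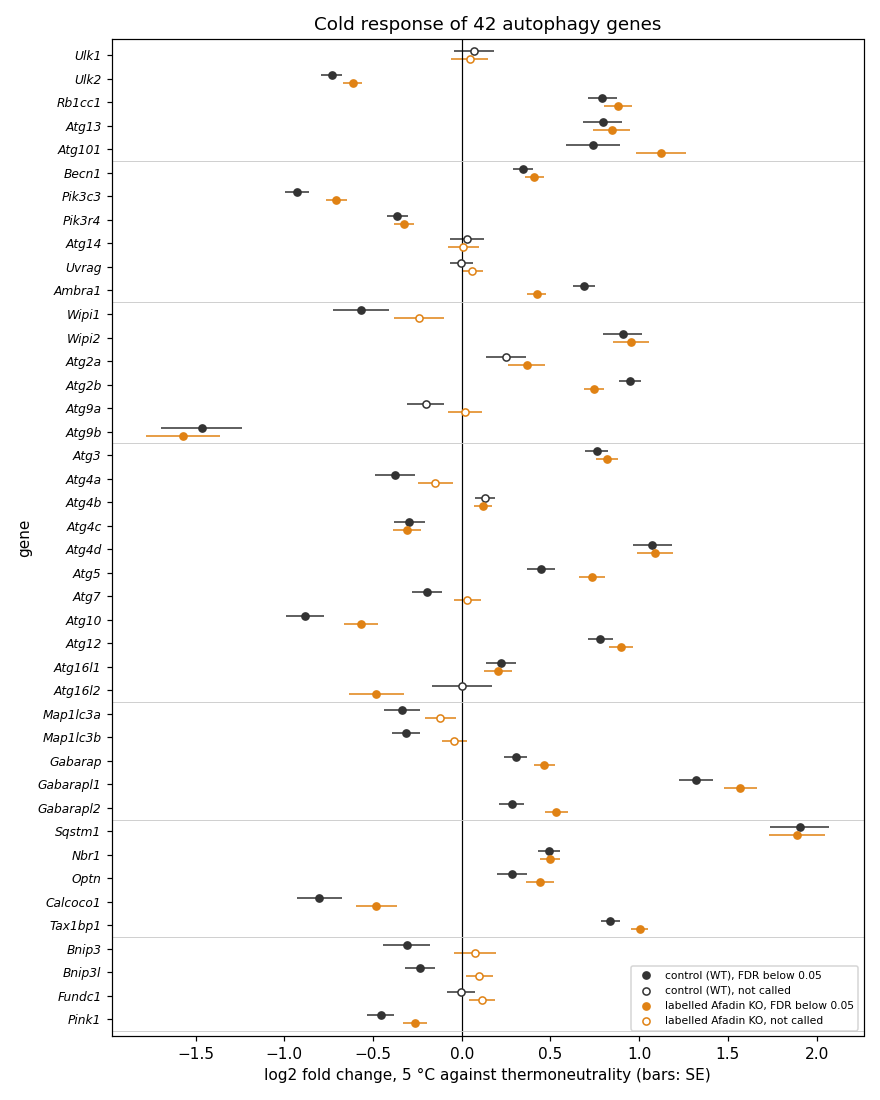
Points are log2 fold changes of 5 °C against thermoneutrality for each of the 42 genes in control mice (black) and mice labelled Afadin KO (orange), with the standard error as bars; filled points passed FDR 0.05. Sqstm1 lies at 1.91 and 1.89, Atg9b at -1.47 and -1.57, and the mitophagy genes at the bottom have no filled point above 0.

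Over all genes tested, 31.6% rose and 33.4% fell in control mice, and 33.7% and 34.9% in knockout mice. Of the 5 genes of the ULK1 initiation complex, 3 rose and 1 fell in each genotype. Ulk1, the kinase of the complex, was the member not called in either. Its lowest, median and highest CPM were 23.3, 24.6 and 32.2 in WT30 and 18.5, 22.5 and 24.5 in KO30. In the cold the 5 WT5 mice, listed here and below in the order 16, 17, 18, 19 and 21, had 23.6, 26.4, 28.8, 30.7 and 28.4 CPM of Ulk1, and the KO5 mice 17.7, 23.2 and 29.3 CPM. The ranges of all 4 groups overlapped, and the log2 fold change of cold was 0.066 ± 0.11 (SE) in control and 0.045 ± 0.10 in knockout mice (edgeR adjusted p = 0.624 and 0.713). With the library size alone the values were -0.056 in control and -0.29 in knockout mice, the second called, and with upper-quartile factors -0.040 and -0.11, neither called. Ulk2, the second kinase, went down: 52.9, 55.1 and 58.1 CPM in WT30 and 49.96, 53.4 and 55.1 CPM in KO30 stood against 34.3, 31.1, 30.6, 35.5 and 34.7 CPM in the 5 WT5 mice and 29.5, 35.6 and 39.2 CPM in KO5. Every mouse at 5 °C was below every mouse at thermoneutrality. Ulk2 fell on the log2 scale by 0.73 ± 0.058 (SE) in controls and by 0.62 ± 0.052 in knockout mice (edgeR adjusted p = 1.98e-11 and 6.34e-11). Levels per kb of the longest protein-coding transcript put Ulk1 at 34.4% ± 3.19 (SD, n = 7) of the CPM per kb of both kinases in WT30. It was at 47.7% ± 2.84 (SD, n = 5) in WT5. In knockout mice the share was 31.6% ± 2.37 (SD, n = 7) in KO30 and 41.9% ± 3.65 (SD, n = 7) in KO5.

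The 3 risers of this complex are its non-kinase subunits. Atg13, the adaptor that binds the kinase, had the largest rise in control mice. It was at 14.9, 16.2 and 19.9 CPM in WT30, at 13.1, 16.0 and 17.8 CPM in KO30, at 28.4, 33.0, 28.8, 28.2 and 27.2 CPM in the WT5 mice and at 21.0, 28.1 and 35.4 CPM in KO5. All cold mice were above all thermoneutral mice of their own genotype. The log2 fold change was 0.80 ± 0.11 (SE) in control and 0.84 ± 0.10 in knockout mice (edgeR adjusted p = 4.95e-07 and 4.43e-08). Rb1cc1, which encodes the scaffold FIP200, rose by 0.79 and 0.88 on the same scale. Atg101, the partner that stabilises ATG13, rose by 0.74 and 1.12. In WT30 mouse 7, Rb1cc1 stood at 82.0 CPM while the other 6 mice of the group were at 116 CPM or more.

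Of the 6 genes of the class III PI3-kinase complex, 2 rose, 2 fell and 2 were not called in each genotype. These counts lie near the shares over all genes tested. Those were 31.6% up and 33.4% down in control mice, and 33.7% and 34.9% in knockout mice. The lipid kinase itself, Pik3c3 (VPS34), had the largest fall. In WT30 Pik3c3 was at 28.3, 32.4 and 36.7 CPM and in KO30 at 29.2, 30.9 and 32.3 CPM, against 18.3, 14.8, 17.6, 17.3 and 17.9 CPM in WT5 and 16.8, 18.9 and 20.9 CPM in KO5. No cold mouse reached the lowest thermoneutral mouse. Pik3c3 fell by 0.93 ± 0.067 (SE, log2 scale) in control and by 0.71 ± 0.06 in knockout mice (edgeR adjusted p = 3.43e-12 and 6.65e-11), a fold of 1.90 and 1.63 downward. Pik3r4, its VPS15 subunit, fell by 0.36 and 0.33. Becn1, the Beclin 1 subunit, went the other way. Its CPM were 34.1, 38.3 and 44.3 in WT30, 34.1, 37.3 and 38.9 in KO30, 44.1, 47.2, 50.2, 49.1 and 50.7 in WT5 and 46.7, 48.2 and 56.0 in KO5, and the 2 knockout groups did not overlap while WT30 mouse 7 (44.3 CPM) reached into the range of WT5. Becn1 had a log2 fold change of 0.34 ± 0.059 (SE) and 0.41 ± 0.054 (edgeR adjusted p = 1.16e-05 and 2.04e-07), and neither was called with the library size alone (0.21 and 0.097). The annotated exons of Becn1 overlap those of Cntd1 on the opposite strand over 43.9% of their length.

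Ambra1, which anchors the Beclin 1 complex and promotes its activity, was the riser of this group in which the genotypes stood furthest apart. It was at 22.7, 25.8 and 30.0 CPM in WT30 and 24.6, 27.1 and 28.5 CPM in KO30. At 5 °C the WT5 mice had 41.2, 40.1, 41.0, 40.0 and 44.1 CPM, and the KO5 mice 33.1, 36.5 and 39.2 CPM. All cold mice were above all thermoneutral mice, and all KO5 mice were below all WT5 mice. Ambra1 rose by 0.69 ± 0.059 (SE, log2 scale) in control and by 0.42 ± 0.055 in knockout mice (edgeR adjusted p = 1.05e-10 and 1.59e-07). The value in knockout mice was 0.11, and not called, with the library size alone. Atg14 and Uvrag, the interchangeable subunits that direct the kinase to autophagosomes or to endosomes, had values of 0.027 and -0.0028 in control and 0.0091 and 0.058 in knockout mice, not called. Their knockout values were -0.31 and -0.26, both called, with the library size alone and -0.15 and -0.099, not called, with upper-quartile factors, and Atg14 also turned in control mice (-0.089 and -0.081, not called).

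The 6 genes of membrane growth held the largest fall among the 42. ATG9 proteins are the membrane-spanning scramblases carried to the growing membrane on vesicles. Atg9b was scarce in BAT, with 1.38, 2.75 and 4.82 CPM in WT30, 2.65, 2.94 and 3.56 CPM in KO30, 1.13, 0.906, 0.772, 1.14 and 1.38 CPM in WT5 and 0.717, 0.908 and 1.65 CPM in KO5. Thermoneutral and cold mice of each genotype did not overlap, although the highest WT5 mouse and the lowest WT30 mouse both stood near 1.38 CPM. Atg9b fell by 1.47 ± 0.23 (SE, log2 scale) in control and by 1.57 ± 0.21 in knockout mice (edgeR adjusted p = 3.17e-06 and 1.83e-07). Its paralogue Atg9a, at 4.55 against 0.754 CPM per kb of transcript for Atg9b in WT30 (group means), had log2 fold changes of -0.20 and 0.018 and was not called (edgeR adjusted p = 0.0864 and 0.87). The control value of Atg9a was called in 4 of the 11 other settings run: with the library size alone (-0.33), with upper-quartile factors (-0.31), with at least 10 counts in every library (-0.25) and with WT30 and WT5 fitted alone (-0.25). It was also called without WT5 mouse 21 (-0.29, edgeR adjusted p = 0.0203). The knockout value was -0.31 with the library size alone and -0.14, not called, with upper-quartile factors. The exons of Atg9a overlap those of Gm29253 on the same strand over 31.8% of their length, where strand cannot separate the reads. Gm29253 had at most 1 count in any library, against 221 or more for Atg9a. Reads that fit both may have been counted for neither, so these counts do not show how many Atg9a lost.

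ATG2 proteins move lipid into the growing membrane. Atg2b rose, from 60.3, 62.0 and 66.5 CPM in WT30 to 114, 118, 117, 125 and 128 CPM in WT5, and from 57.2, 62.8 and 69.7 CPM in KO30 to 94.8, 104 and 124 CPM in KO5. No cold value overlapped a thermoneutral value. The log2 fold change was 0.95 ± 0.062 (SE) in control and 0.74 ± 0.058 in knockout mice (edgeR adjusted p = 4.94e-13 and 1.01e-11). Atg2a had 0.25 in control mice, not called (edgeR adjusted p = 0.0587), and rose by 0.37 in knockout mice (edgeR adjusted p = 0.00314). The control value passed the threshold without WT5 mouse 16 (0.30), without WT5 mouse 17 (0.28), without the 3 libraries that stand apart (0.27) and with WT30 and WT5 fitted alone (0.20). The knockout call was lost without the 3 libraries that stand apart (0.21, edgeR adjusted p = 0.0526), without the libraries rich in muscle markers (0.16, edgeR adjusted p = 0.243), with the library size alone (0.031) and with upper-quartile factors (0.21). WIPI proteins read the lipid mark. Wipi2 rose by 0.91 and 0.95 on the log2 scale, while Wipi1 fell in control mice.

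For Wipi1 the CPM were 11.0, 11.9 and 12.9 in WT30, 10.1, 10.9 and 11.0 in KO30, 10.6, 5.64, 8.93, 8.37 and 6.68 in WT5 and 5.92, 8.19 and 14.1 in KO5. Controls in the cold were all below controls at thermoneutrality, whereas the KO5 mice spread on both sides of the KO30 mice. The log2 fold change was -0.57 ± 0.16 (SE) in control and -0.24 ± 0.14 in knockout mice (edgeR adjusted p = 0.00258 and 0.133). The 2 highest KO5 values belonged to mice 24 and 25, whose muscle markers stood at 3560 and 7086 CPM. Leaving out mouse 24 gave -0.33 (edgeR adjusted p = 0.0437), leaving out mouse 25 gave -0.39 (0.00827), and leaving out all libraries rich in muscle markers gave -0.60 (0.000777). The knockout value was called as well without the 3 libraries that stand apart (-0.52), with the library size alone (-0.60) and with upper-quartile factors (-0.40).

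The 11 genes of the conjugation machinery gave 5 up, 4 down and 2 not called in control mice. In knockout mice they gave 6 up, 3 down and 2 not called. Over all genes tested, 31.6% rose and 33.4% fell in control mice, and 33.7% and 34.9% in knockout mice. ATG12 is joined to ATG5 by the E1-like enzyme ATG7 and the E2-like enzyme ATG10, and ATG8 proteins are trimmed by ATG4 proteases and joined to lipid by ATG7 and ATG3. Atg3 and Atg12 rose by 0.76 and 0.78 in control and by 0.82 and 0.90 in knockout mice. Atg5 rose as well. The CPM of Atg5 were 16.1, 19.7 and 21.8 in WT30, 16.8, 17.8 and 19.7 in KO30, 25.3, 24.9, 24.0, 29.3 and 27.5 in WT5 and 25.6, 29.8 and 35.4 in KO5, and thermoneutral and cold mice did not overlap in either genotype. Atg5 had a log2 fold change of 0.45 ± 0.08 (SE) and 0.73 ± 0.074 (edgeR adjusted p = 2.21e-05 and 1.58e-09).

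The 2 enzymes that join ATG12 to ATG5 did not rise. Atg10 was at 15.7, 19.6 and 20.0 CPM in WT30 and 14.4, 16.4 and 18.5 CPM in KO30, and at 10.1, 9.61, 12.0, 10.4 and 8.24 CPM in WT5 and 9.43, 11.0 and 14.6 CPM in KO5. Cold controls were all below thermoneutral controls, and among knockout mice the highest KO5 value just exceeded the lowest KO30 value. Atg10 fell by 0.88 ± 0.10 (SE) and 0.57 ± 0.094 on the log2 scale (edgeR adjusted p = 3.75e-08 and 6.51e-06). For Atg7 the CPM were 27.3, 31.1 and 33.8 in WT30, 26.8, 29.03 and 31.9 in KO30, 25.6, 26.3, 32.1, 27.1 and 24.2 in WT5 and 25.5, 28.1 and 38.9 in KO5. All 4 ranges overlapped. Atg7 fell by 0.20 ± 0.085 (SE) in control mice and had a value of 0.031 ± 0.077 in knockout mice (edgeR adjusted p = 0.0453 and 0.732). The control call was lost without any 1 of WT30 mice 2, 3, 4, 5 and 6 or WT5 mice 16, 17, 19 and 21, with values from -0.20 to -0.16. It was also lost with no filter on low counts (-0.20, edgeR adjusted p = 0.076) and without the libraries rich in muscle markers (-0.15, 0.151). The knockout value was -0.30, and called, with the library size alone and -0.13, not called, with upper-quartile factors.

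The promoter windows shown here were picked from those that held a motif named below, in genes called in control mice. Windows of Atg10, Atg4a, Atg4c and Atg4d, conjugation genes also called in control mice, held none and are not shown. RefSeq promoter windows of 300 bases on GRCm38.p6 (250 before the transcript start and 50 after it) matched 35 of the 42 genes, with 39 windows. They were searched on both strands for the E-box CACGTG, the CLEAR core TCACGTGA that contains it and is known as the site of TFEB and its relatives, the forkhead box GTAAACA and the cyclic AMP response element TGACGTCA. In the lines that follow, read 5′ to 3′ along the gene, capitals mark those matches. Atg3 (chr16:45158579-45158878, plus strand) and Atg5 (chr10:44268089-44268388, plus strand) rose in the cold, and Atg7 (chr6:114670846-114671145, plus strand) and the mitophagy receptor gene Bnip3 (chr7:138909457-138909756, minus strand) fell in control mice.
Atg3: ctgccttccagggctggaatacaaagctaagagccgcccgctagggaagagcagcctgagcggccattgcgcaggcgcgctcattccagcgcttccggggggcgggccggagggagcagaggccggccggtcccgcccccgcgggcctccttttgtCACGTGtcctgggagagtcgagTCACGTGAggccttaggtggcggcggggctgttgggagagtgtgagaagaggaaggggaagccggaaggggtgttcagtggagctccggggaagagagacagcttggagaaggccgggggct
Atg5: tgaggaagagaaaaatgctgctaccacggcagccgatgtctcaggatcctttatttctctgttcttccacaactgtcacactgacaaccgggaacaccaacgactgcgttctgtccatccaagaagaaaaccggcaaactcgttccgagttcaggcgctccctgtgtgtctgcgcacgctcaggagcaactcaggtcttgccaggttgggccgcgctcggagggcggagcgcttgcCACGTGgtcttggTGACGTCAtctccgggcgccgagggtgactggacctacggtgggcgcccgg
Atg7: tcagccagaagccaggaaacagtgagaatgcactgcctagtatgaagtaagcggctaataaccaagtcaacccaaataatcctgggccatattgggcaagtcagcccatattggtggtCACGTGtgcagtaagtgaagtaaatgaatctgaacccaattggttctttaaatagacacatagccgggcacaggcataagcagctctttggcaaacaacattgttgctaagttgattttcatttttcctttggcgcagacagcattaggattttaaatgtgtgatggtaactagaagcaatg
Bnip3: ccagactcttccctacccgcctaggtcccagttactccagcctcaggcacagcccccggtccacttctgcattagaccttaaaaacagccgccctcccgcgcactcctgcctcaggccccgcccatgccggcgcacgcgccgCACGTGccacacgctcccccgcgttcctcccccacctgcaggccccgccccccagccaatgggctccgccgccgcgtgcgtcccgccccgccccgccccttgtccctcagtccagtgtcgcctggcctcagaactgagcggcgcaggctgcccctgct
Atg3 held E-boxes starting 94 and 71 bases before the transcript start, and the second lies within a CLEAR core that starts 72 bases before. The Atg5 window held an E-box 14 bases before the start and a cyclic AMP response element across the start itself, beginning 1 base before it. Atg7 and Bnip3 held 1 E-box each, 132 and 108 bases before the start. The Atg7 window lies inside the annotated gene (chr6:114643097-114860614), so it belongs to an internal start and not to the first start of the gene. An E-box was in 5 of the 39 windows (12.8%; the fifth is Atg14), beside 7.15% of all 32851 RefSeq windows. A CLEAR core was in 1 (2.56%, beside 0.974%), a cyclic AMP response element in 2 (5.13%, beside 1.79%; Atg5 and Atg16l2), and the forkhead box in none of the 39, beside 3.65%. The E-box thus stood in windows of 2 genes that rose, 2 that fell and 1 that was not called in control mice.

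The ATG4 proteases that trim ATG8 proteins and cut them from the membrane again did not move together. Atg4d was the riser. Its CPM were 23.5, 26.2 and 31.1 in WT30, 23.0, 27.4 and 30.0 in KO30, 54.4, 55.8, 51.7, 59.0 and 58.5 in WT5 and 41.1, 51.2 and 80.0 in KO5, with no overlap between temperatures. The log2 fold change was 1.07 ± 0.11 (SE) in control and 1.09 ± 0.10 in knockout mice (edgeR adjusted p = 2.58e-09 and 4.16e-10). Atg4c fell by 0.30 and 0.31. Atg4a fell by 0.38 in control mice and had a value of -0.15 in knockout mice, which was called with the library size alone (-0.47) and with upper-quartile factors (-0.30). Atg4b, at 0.13 in control (not called) and 0.12 in knockout mice (edgeR adjusted p = 0.0485), lay at the threshold: it was called in control mice without WT30 mouse 6 (0.15, edgeR adjusted p = 0.0246) and without the 3 libraries that stand apart (0.14, 0.0283), and in knockout mice the call was lost without any 1 of the 7 KO30 mice or KO5 mice 23, 24, 26, 27 and 28 (values from 0.074 to 0.12). Of the 11 other settings run, 5 lost the knockout call with a positive value, from 0.056 with at least 10 counts in every library to 0.14 without the libraries rich in muscle markers. With the library size alone and with upper-quartile factors the value turned to -0.19 and -0.036. As a share of the CPM per kb of the 4 proteases, Atg4d went from 22.4% ± 1.67 (SD, n = 7) in WT30 to 38.7% ± 1.67 (SD, n = 5) in WT5, and Atg4b from 43.6% ± 2.36 to 39.2% ± 1.21. Exons of Atg4d overlap Kri1 on the opposite strand over 19.3% of their length. A copy of Atg4a, Atg4a-ps, matches it at 99.3% identity over 2115 bases and could take a part of its reads. Atg4a-ps had at most 12 counts in any library, against 72 or more for Atg4a. Reads that fit both may have been left uncounted, so this does not show how many Atg4a lost.

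ATG16L proteins carry the ATG12 and ATG5 conjugate to the membrane. Atg16l1 rose by 0.22 in control and 0.20 in knockout mice (edgeR adjusted p = 0.0267 and 0.0241). The control call was lost without WT30 mouse 4 (0.19) or WT5 mouse 21 (0.16), and the knockout call without any 1 of KO30 mice 8, 9, 12 and 14 and KO5 mice 23, 27 and 28 (0.16 to 0.18). Of the 11 other settings run, 5 lost the control call, with values from 0.0945 with the library size alone to 0.21 with no filter on low counts. In knockout mice 4 lost it, with values from 0.047 with upper-quartile factors to 0.20 with no filter, and the value turned to -0.096 with the library size alone. Atg16l2 was at 7.80, 10.1 and 11.4 CPM in WT30, 8.12, 9.35 and 10.8 CPM in KO30, 7.30, 10.2, 9.57, 9.98 and 11.2 CPM in WT5 and 3.67, 6.89 and 10.9 CPM in KO5. The groups overlapped at both temperatures, and the 4 lowest KO5 values lay below every mouse of the other groups. Atg16l2 had a value of -0.0016 in control mice and fell by 0.48 ± 0.16 (SE) in knockout mice (edgeR adjusted p = 0.994 and 0.00824). The knockout call was lost without the 3 libraries that stand apart (-0.30, edgeR adjusted p = 0.059) and without the libraries rich in muscle markers (-0.28, 0.166).

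All 5 genes of the ATG8 family were called in control mice, 3 up and 2 down. In knockout mice the same 3 rose while the other 2 were not called. Beside them, 31.6% of all genes tested rose and 33.4% fell in control mice, and 33.7% and 34.9% in knockout mice. The GABARAP genes made up the risers and the LC3 genes the fallers. Gabarapl1 had the largest rise. At thermoneutrality its CPM were 77.4, 117 and 131 in WT30 and 94.9, 100.2 and 107 in KO30. The WT5 mice had 242, 259.7, 336, 270.4 and 299 CPM and the KO5 mice 254, 311 and 328 CPM. Every cold mouse was above every thermoneutral mouse, and WT30 mouse 7 had the lowest value of all, 77.4 CPM. Gabarapl1 had a log2 fold change of 1.32 ± 0.097 (SE) in control and 1.57 ± 0.091 in knockout mice (edgeR adjusted p = 4.8e-12 and 3.78e-14), or 2.497-fold and 2.97-fold. Gabarap rose by 0.30 and 0.47, and Gabarapl2 by 0.28 and 0.53. With the library size alone, Gabarap (0.18 and 0.15) and the control value of Gabarapl2 (0.17) were not called. Gabarapl1 shares 28.3% of its exon length with 1700101I11Rik on the opposite strand.

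Map1lc3a and Map1lc3b encode LC3A and LC3B, the ATG8 proteins most used as markers of autophagosomes. Map1lc3b was at 91.4, 108 and 117 CPM in WT30, 89.8, 99.9 and 109 CPM in KO30, 79.4, 75.9, 91.8, 83.8 and 91.0 CPM in WT5 and 85.5, 90.9 and 121 CPM in KO5. Of the WT5 mice 4 lay below all WT30 mice and mouse 18 just above the lowest of them, and the KO5 mice spread over the whole KO30 range, with mouse 24 highest at 121 CPM. Map1lc3b fell by 0.32 ± 0.079 (SE) in control mice and had a value of -0.042 ± 0.072 in knockout mice (edgeR adjusted p = 0.00102 and 0.619). Map1lc3a gave 85.4, 98.1 and 124 CPM in WT30, 90.7, 96.9 and 125 CPM in KO30, 79.9, 80.0, 76.1, 84.9 and 81.2 CPM in WT5 and 77.8, 88.3 and 116 CPM in KO5. All WT5 mice were below all WT30 mice, and the knockout groups overlapped. Map1lc3a fell by 0.34 ± 0.099 (SE) in control mice and had -0.12 ± 0.09 in knockout mice (edgeR adjusted p = 0.00421 and 0.237). Both knockout values were called with the library size alone (-0.44 for Map1lc3a and -0.38 for Map1lc3b) and with upper-quartile factors (-0.28 and -0.20). Several processed copies of Map1lc3b and Gabarapl2 elsewhere in the genome match their transcripts at 96.1% to 99.6% identity, so their counts could be split. The copies of Map1lc3b had at most 35 counts in any library, against 1089 or more for the gene. Those of Gabarapl2 had at most 19, against 269 or more. Reads that fit a gene and its copy may have been left uncounted, so these counts do not show how many were lost.

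Per kb of transcript, the make-up of the ATG8 messages shifted. In WT30, Gabarap took 31.7% ± 1.94 (SD, n = 7) of the family's CPM per kb, Map1lc3a 30.2% ± 3.20, Gabarapl1 20.6% ± 3.14, Map1lc3b 13.2% ± 0.834 and Gabarapl2 4.29% ± 0.585. In WT5, Gabarapl1 led with 39.3% ± 3.53 (SD, n = 5), and Map1lc3a was at 18.5% ± 1.17. The KO5 share of Gabarapl1, 39.2% ± 2.67 (SD, n = 7), differed from that of WT5 by less than the spread between mice. The family's summed level was 301 ± 14.1 CPM per kb in WT30, 281 ± 19.8 in KO30, 392 ± 18.4 in WT5 and 419 ± 30.9 in KO5 (mean ± SD). Using the union of all annotated exons as the length gave Gabarapl1 23.8% in WT30 and 44.0% in WT5.

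**Figure D3:**
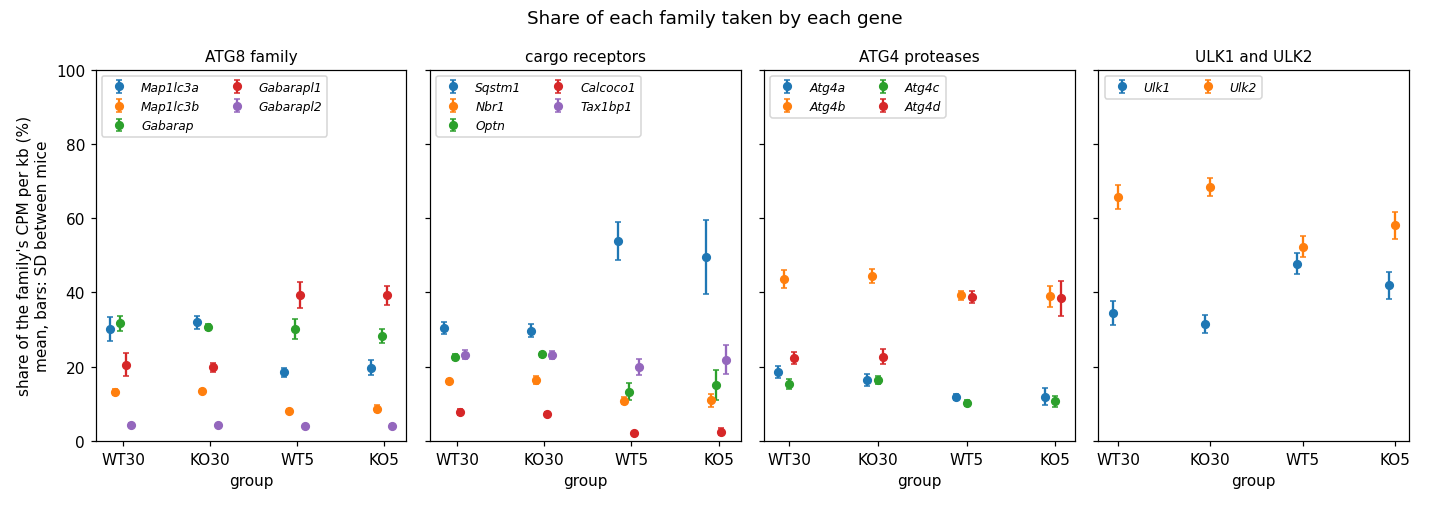
Points are the mean share (%) that each gene takes of its family's CPM per kb in WT30, KO30, WT5 and KO5, with the SD between mice as bars, for the ATG8 family, the cargo receptors, the ATG4 proteases and the ULK1 and ULK2 kinases. Gabarapl1 stands at 20.6% in WT30 and 39.3% in WT5, and Sqstm1 at 30.4% and 53.9%.

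Among the cargo receptors, 4 rose and 1 fell in each genotype, with a median log2 fold change of 0.49 in control and 0.50 in knockout mice. The shares over all genes tested were 31.6% up and 33.4% down in control mice, and 33.7% and 34.9% in knockout mice. Sqstm1 encodes p62, the receptor for ubiquitinated protein aggregates and also a target gene of stress pathways. It was tightly held at thermoneutrality, at 152, 169.7 and 181 CPM in WT30 and 144, 155 and 174 CPM in KO30. In WT5 the mice had 568, 449, 672, 688 and 782 CPM, and in KO5 297, 587 and 907 CPM. Every cold mouse was above every thermoneutral mouse. The coefficient of variation was 5.32% in WT30 and 6.42% in KO30, and in the cold 20.2% in WT5 and 33.9% in KO5. The log2 fold change was 1.91 ± 0.17 (SE) in control and 1.89 ± 0.16 in knockout mice (edgeR adjusted p = 1.24e-10 and 4.01e-11), 3.75-fold and 3.71-fold. The 2 lowest KO5 values of Sqstm1 (297 and 407 CPM) were those of mice 24 and 25, with muscle markers at 3560 and 7086 CPM. Sqstm1 took 30.4% ± 1.54 (SD, n = 7) of the receptors' CPM per kb in WT30, 53.9% ± 5.04 (SD, n = 5) in WT5 and 49.6% ± 9.91 (SD, n = 7) in KO5. Exons of Mrnip on the opposite strand cover 17.3% of those of Sqstm1.

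Nbr1, a receptor that works beside p62, rose by 0.49 and 0.50, and Tax1bp1, another ubiquitin-binding receptor, by 0.84 and 1.00. Optn (optineurin), which brings ATG8 proteins to ubiquitinated mitochondria and bacteria, rose by 0.28 and 0.44. With the library size alone, the knockout value of Nbr1 (0.18) and both values of Optn (0.16 and 0.11) were not called, and with upper-quartile factors the control value of Optn (0.18) was not called. Calcoco1, a receptor described for turnover of the endoplasmic reticulum and Golgi, was the exception. Its CPM were 42.3, 47.2 and 54.6 in WT30, 41.5, 42.8 and 46.3 in KO30, 24.4, 25.6, 33.0, 24.4 and 28.6 in WT5 and 17.4, 30.5 and 40.3 in KO5. The cold mice of each genotype lay below all its thermoneutral mice, with KO5 mouse 27 lowest. Calcoco1 fell by 0.80 ± 0.13 (SE) in control and 0.48 ± 0.11 in knockout mice on the log2 scale (edgeR adjusted p = 3.82e-06 and 0.00054).

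None of the 4 mitophagy genes rose, beside 31.6% of all genes tested in control and 33.7% in knockout mice. In control mice 3 fell, beside 33.4% of all genes tested. In knockout mice 1 fell, beside 34.9%, and 3 were not called. Pink1, the kinase that marks damaged mitochondria, had the largest fall. Its CPM were 209.6, 234 and 271 in WT30, 199, 223 and 252 in KO30, 172, 189, 182, 147 and 165 in WT5 and 158, 185 and 211 in KO5. Cold controls were all below thermoneutral controls, and the knockout groups overlapped. Pink1 fell by 0.46 ± 0.078 (SE) in control and 0.26 ± 0.07 in knockout mice (edgeR adjusted p = 1.07e-05 and 0.0017). Bnip3 and Bnip3l encode mitophagy receptors of the outer mitochondrial membrane. Bnip3, whose promoter is printed above, was at 120.2, 133 and 149 CPM in WT30, 114, 122 and 151 CPM in KO30, 115, 97.7, 119.6, 102 and 97.4 CPM in WT5 and 84.0, 131 and 185 CPM in KO5. All WT5 mice were below all WT30 mice, and the KO5 mice ranged from below to above every other group, with mice 24 and 25 highest at 173 and 185 CPM.

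Bnip3 fell by 0.31 ± 0.13 (SE) in control mice and had a value of 0.075 ± 0.12 in knockout mice (edgeR adjusted p = 0.0423 and 0.592). The control call was lost without any 1 of WT30 mice 1, 2, 3 and 5 or WT5 mice 17, 19 and 21, with values from -0.31 to -0.28, and the knockout value was -0.28, and called, with the library size alone and -0.086, not called, with upper-quartile factors. Bnip3l gave 46.3, 50.4 and 52.7 CPM in WT30, 42.6, 45.1 and 49.2 CPM in KO30, 33.7, 39.6, 49.1, 43.8 and 43.7 CPM in WT5 and 38.3, 51.1 and 55.4 CPM in KO5. Of the WT5 mice, mouse 18 lay within the WT30 range and the other 4 below it, and KO5 covered the KO30 range. Bnip3l fell by 0.24 ± 0.083 (SE) in control mice and had 0.098 ± 0.075 in knockout mice (edgeR adjusted p = 0.0143 and 0.248). Without WT5 mouse 16 the control value was -0.17 and not called (edgeR adjusted p = 0.0727), and without the libraries rich in muscle markers it was -0.17 (0.17). The knockout value of Bnip3l was -0.22 with the library size alone and -0.060 with upper-quartile factors, not called in either. Fundc1, a receptor linked to low oxygen, had values of -0.005 and 0.11 and was not called. Its knockout value was -0.22, and called, with the library size alone and -0.045, not called, with upper-quartile factors. Copies of Bnip3 at 95.2% to 98.9% identity and of Bnip3l at 99.2% could take a part of their reads. Those counted had at most 47 counts in any library for Bnip3 and 13 for Bnip3l, against 1377 and 568 or more for the genes themselves. Reads that fit a gene and its copy may have been left uncounted, so the number lost is not known.

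**Figure D4:**
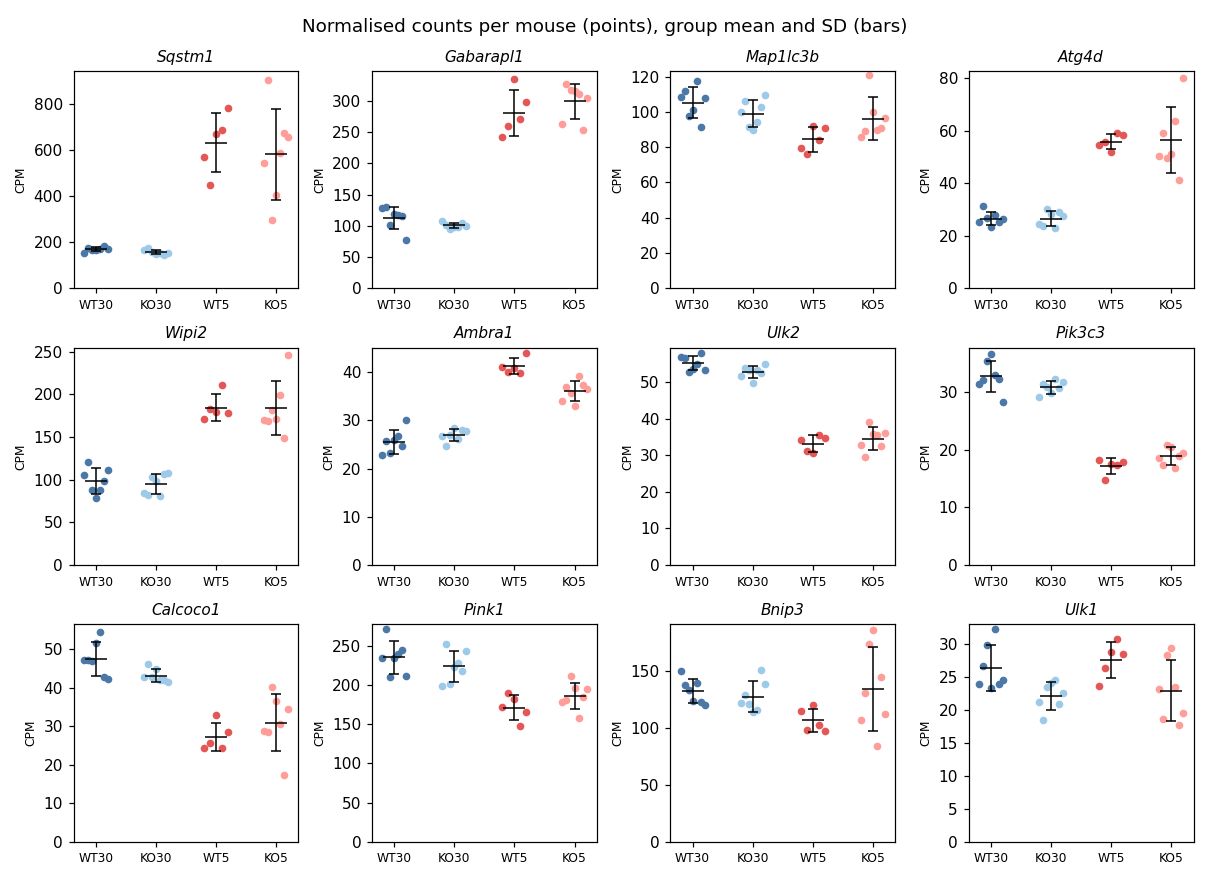
CPM of 12 of the genes in each mouse (points) by group, with the group mean and SD as bars and every axis starting at 0. Sqstm1, Gabarapl1, Atg4d, Wipi2 and Ambra1 are higher in the cold groups without overlap, Ulk2, Pik3c3 and Calcoco1 are lower without overlap within each genotype, Pink1 lower without overlap in control mice, and the KO5 points of Sqstm1 (297 to 907 CPM) and Bnip3 (84.0 to 185 CPM) spread widely.

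The other genes of the pathway, 52 in 3 lists, were measured alongside and all 52 were tested. Their counts stand beside 31.6% up and 33.4% down over all genes tested in control mice, and 33.7% and 34.9% in knockout mice. Of 17 further core and fusion genes, 6 rose, 5 fell and 6 were not called in control mice, and 8, 5 and 4 in knockout mice. Vmp1, a scramblase needed to close the autophagosome from the endoplasmic reticulum, rose by 1.48 ± 0.11 (SE, log2 scale) in control mice, and Fyco1, which carries autophagosomes along microtubules, fell by 1.496 ± 0.13 (edgeR adjusted p = 5.01e-12 and 2.32e-10). Of 19 genes of selective autophagy, 10 rose, 4 fell and 5 were not called in each genotype. There Tbk1, the kinase that phosphorylates p62 and optineurin, rose by 1.48 ± 0.076 and Stbd1, a glycogen receptor, fell by 1.42 ± 0.19 in control mice (edgeR adjusted p = 4.33e-15 and 3.87e-07). Of 16 regulators, 12 rose, 2 fell and 2 were not called in control mice, and 13, 2 and 1 in knockout mice. The stress sensors Sesn2 and Sesn1 marked both ends, at 1.87 ± 0.25 and -1.002 ± 0.13 (edgeR adjusted p = 2.26e-07 and 1.5e-07). Median log2 fold changes in control mice were 0.049, 0.31 and 0.61 for the 3 lists, beside -0.014 for all genes tested.

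Between genotypes, no autophagy gene passed the threshold at either temperature. At thermoneutrality, 0 of the 42 were called by edgeR's quasi-likelihood test or by DESeq2, beside 0.0579% of all genes tested higher and 0.0231% lower in KO30. Those shares stand for 14 genes, which became 93 without WT30 mouse 7 and 7 to 9 without any 1 of WT30 mice 2, 3 and 6 and KO30 mouse 13. At an unadjusted p below 0.05 there were 5 of the 42, beside 7.65% of all genes: Gabarap (-0.15), Ulk1 (-0.25), Atg12 (-0.16), Gabarapl2 (-0.14) and Atg4a (-0.21), all lower in KO30 on the log2 scale. The CPM of WT30 and KO30 overlapped for all 42, beside 0.249% of all genes with no overlap. The intervals of the differences were narrow for most genes: for Becn1 the 95% interval ran from -0.15 to 0.077, for Map1lc3b from -0.23 to 0.061, for Pink1 from -0.22 to 0.072 and for Sqstm1 from -0.41 to 0.21. The widest was that of Atg9b, from -0.33 to 0.44. The median over the 42 genes was -0.059, beside -0.020 over all genes tested.

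After cold, 0 of the 42 were called by either tool, beside 0.0463% of all genes tested higher and 0.0926% lower in KO5. The 24 genes behind these shares became 100 without KO5 mouse 22 and 7 to 15 without any 1 of WT5 mice 17, 18, 19 and 21 and KO5 mice 24, 25 and 27. At an unadjusted p below 0.05 there were 9 of the 42, beside 13.4% of all genes. Lower in KO5 were Ambra1 (-0.19), Atg16l2 (-0.50), Atg2b (-0.17) and Ulk1 (-0.27), and higher were Bnip3l (0.22), Bnip3 (0.33), Map1lc3b (0.19), Atg5 (0.19) and Pik3c3 (0.14). Ambra1 was the 1 gene of the 42 whose CPM did not overlap between WT5 and KO5, beside 1.11% of all genes tested. Its log2 difference was -0.19 ± 0.059 (SE), with a 95% interval from -0.31 to -0.07 (edgeR adjusted p = 0.16). The intervals reached from -0.46 to 0.22 for Sqstm1, from -0.11 to 0.29 for Gabarapl1 and from -0.037 to 0.28 for Pink1. Red blood cell markers summed to 417 to 684 CPM in WT5 and 517 to 1497 CPM in KO5, and the nuclear RNAs to 14840 to 16273 CPM and 10340 to 13577 CPM, and their part in these values was not tested.

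**Figure D5:**
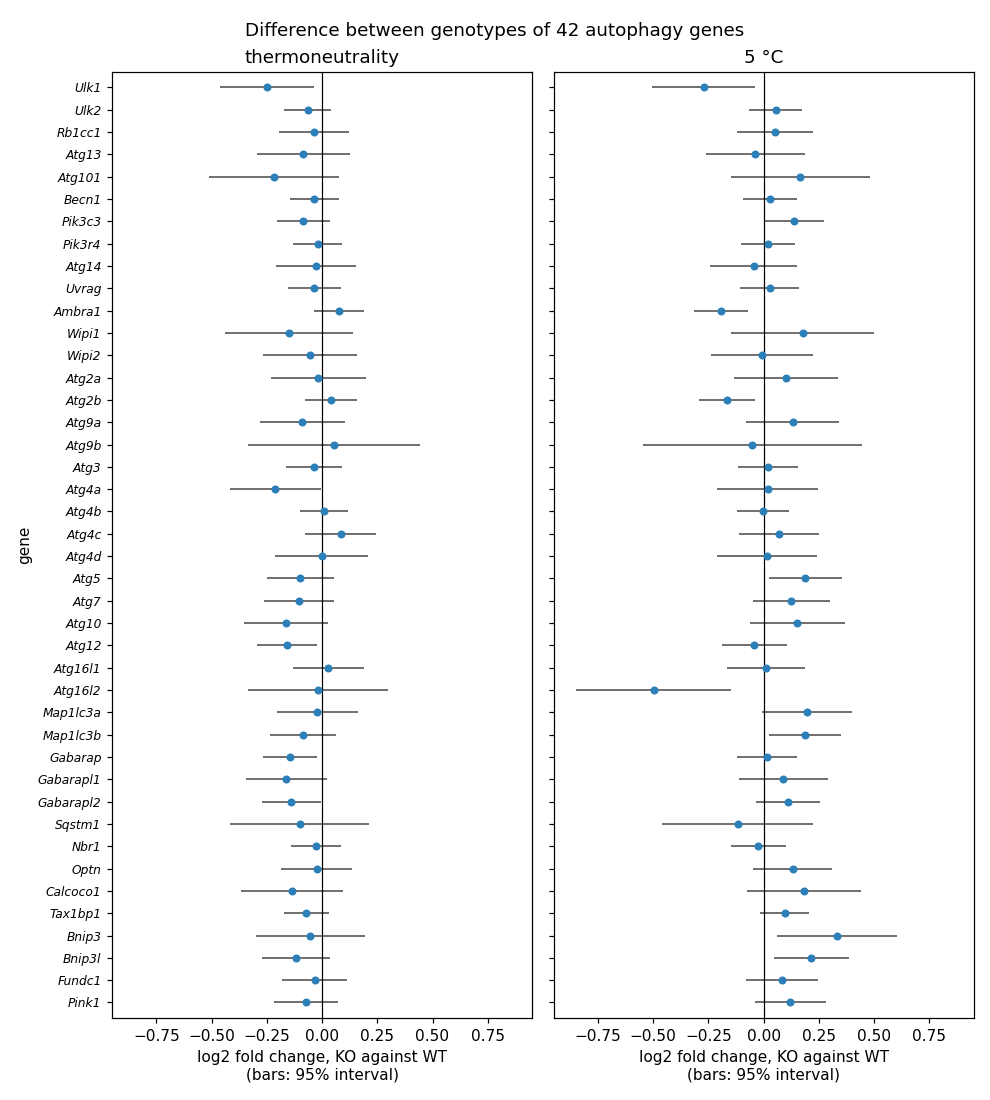
Points are the log2 fold changes of mice labelled Afadin KO against control mice for the 42 genes at thermoneutrality (left) and at 5 °C (right), with the 95% interval as bars. No gene passed FDR 0.05 in either panel; the interval of Ambra1 at 5 °C lies below 0 (-0.31 to -0.07), and that of Atg9b is the widest at thermoneutrality.

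The difference of the cold responses between genotypes was called for 0 of the 42 genes by edgeR or DESeq2, beside 0.289% of all genes tested with a higher and 0.868% with a lower response in knockout mice. Those 200 genes became 371 without WT30 mouse 7, 302 without KO5 mouse 22, and 49 to 121 without any 1 of WT30 mice 2, 4 and 6, KO30 mice 8, 10 and 11, the 5 WT5 mice and KO5 mouse 24. At an unadjusted p below 0.05 there were 11 of the 42, beside 16.2% of all genes. Ambra1 (-0.27 ± 0.081 SE, edgeR adjusted p = 0.101), Atg2b (-0.21) and Atg16l2 (-0.48) had negative differences, knockout minus control, and the other 8 positive ones, none of them past the threshold: Bnip3l (0.33 ± 0.11 SE, edgeR adjusted p = 0.132), Bnip3 (0.39), Atg10 (0.31), Atg5 (0.29), Map1lc3b (0.28), Gabarapl2 (0.25), Pik3c3 (0.22) and Tax1bp1 (0.17). Ambra1 passed the threshold without WT30 mouse 7 (-0.32, edgeR adjusted p = 0.0221) and with upper-quartile factors (-0.32, 0.0473). Without WT30 mouse 7 and KO5 mice 24 and 25 together, Ambra1 (-0.29, edgeR adjusted p = 0.0488) and Gabarapl2 (0.34, 0.046) passed, and without all libraries rich in muscle markers none did. So the falls called in control mice only, those of Wipi1, Atg4a, Atg7, Map1lc3a, Map1lc3b, Bnip3 and Bnip3l, were not shown to differ from the values in knockout mice, with adjusted p for the difference of 0.467, 0.471, 0.328, 0.438, 0.195, 0.286 and 0.132 (edgeR). Among the 52 other genes of the pathway, 1 was called, Wdfy3, which encodes a scaffold for clearing aggregates (-0.38 ± 0.094 SE, edgeR adjusted p = 0.0452).

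The autophagy genes varied little between mice of a group. The median coefficient of variation of the 42 was 8.77% in WT30, 6.40% in KO30, 8.23% in WT5 and 12.4% in KO5, beside 16.2%, 13.8%, 13.9% and 20.0% over all genes tested, which include many genes of lower counts. KO5 had the highest median of the 4 groups for both the 42 genes and all genes. By level per kb of transcript in WT30, the highest of the 42 were Pink1 (98.9 CPM per kb), Gabarap (95.3), Map1lc3a (91.3) and Bnip3 (75.1), and the lowest Atg9b (0.754) and Atg16l2 (1.495). In WT5 the highest were Sqstm1 (236), Gabarapl1 (154) and Gabarap (118).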

How the data were processed

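The authors aligned 100-bp single-end reads of TruSeq Stranded, Ribo-Zero depleted libraries to mm10 with STAR 2.5.2b. They counted genes of GENCODE M13 with featureCounts 1.5.2. The strand setting of the counting, and the treatment of reads that fit several genes or places, are not given in the sources used here. They deposited whole-number counts per gene for 26 mice, with no normalization, and these counts are the values used. Totals per library ran from 12705969 to 25732258, which limits precision most for scarce genes such as Atg9b. Identifiers were matched to symbols, lengths and exons of GENCODE M21 (50376 of 50686 had a symbol).

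Following the model stated in the study's methods (y ~ 0 + group over all 4 groups), edgeR 4.0.16 in R 4.3.3 was run with filterByExpr, TMM factors and the quasi-likelihood test (glmQLFit with legacy = TRUE, glmQLFTest); the authors ran edgeR 3.22.0. Contrasts compared temperatures within each genotype, genotypes within each temperature, and the 2 cold responses with each other. Adjusted p-values are Benjamini-Hochberg over all 17286 tested genes, called at 0.05. The standard error of a log2 fold change is its size divided by the square root of F. CPM use TMM library sizes, and levels between genes are CPM per kb of the longest protein-coding transcript. Samples were grouped by their labels, and replicate numbers are not shared between groups. Counts of the 73 pairs of libraries within groups differed by more than sampling noise (lowest chi-square per gene 4.695), so within groups no library repeats another. That each library is 1 mouse rests on the labels and on the study's statement that its replicates are biological. The scripts were tested on simulated data.

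Alternatives were DESeq2 1.42.0, other scalings and filters, other dispersion settings, fits of the groups compared only, and fits without each library; fits without the 3 libraries that stand apart or without those rich in muscle markers, and shares over the union of exons, were chosen after seeing the data. Values by mouse in WT5, and the lowest, median and highest in the groups of 7, are given for Ulk1, Becn1, Wipi1, Atg5, Atg7, Map1lc3b, Gabarapl1, Sqstm1, Bnip3, Bnip3l and Pink1 and for the called gene with the largest rise and fall of each role in control mice; of the other lists, the largest called rise and fall are named. Atg16l2 was given in full after its values were seen. The 42 genes, the lists and the tests were chosen with earlier results of these data known. Sequences are from RefSeq (GRCm38.p6).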

Additional observations from a re-analysis of the deposited data

Results flagged for a closer look

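A gap test was run on the 42 genes in each of the 4 groups, 168 tests in all, and marked a mouse whose CPM stood apart from the rest of its group by more than Dixon's critical value. It marked 14, where chance alone marks about 1 in 20 groups. The tests share the same 26 libraries and are not independent. The gap test was not run on other genes, so the 14 have no background to stand beside. WT30 mouse 7, the library with the lowest mitochondrial share, was lowest for Rb1cc1 (82.0 CPM, next 116) and highest for Becn1 (44.3 CPM, next 38.4) and Atg2b (66.5 CPM, next 62.3). KO30 mouse 14 was highest for Atg101 (19.2 CPM, next 13.4) and Map1lc3a (125 CPM, next 105) and lowest for Wipi1 (10.1 CPM, next 10.7). WT5 mouse 17 was highest for Atg13 (33.0 CPM, next 28.8) and lowest for Pik3c3 (14.8 CPM, next 17.3). Among KO5 mice, mouse 27 was highest for Becn1 (56.0 CPM, next 50.2) and Atg3 (81.3 CPM, next 71.3), mouse 24 for Atg7 (38.9 CPM, next 31.2) and Map1lc3b (121 CPM, next 100.2), mouse 26 for Gabarapl2 (34.1 CPM, next 28.8) and mouse 28 for Nbr1 (251 CPM, next 222). Their causes were not tested.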

How the results depend on the processing

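With the library size alone in place of TMM factors, calls in knockout mice were 13 up and 20 down, and the knockout values of Ulk1 (-0.29), Atg14 (-0.31), Uvrag (-0.26), Atg9a (-0.31), Atg4b (-0.19), Atg7 (-0.30), Atg16l1 (-0.096), Bnip3 (-0.28), Bnip3l (-0.22) and Fundc1 (-0.22) turned negative. The same setting moved the median of all genes to -0.34. With upper-quartile factors, where that median was -0.18, the same values other than that of Atg16l1 turned too, to between -0.15 and -0.036 (Atg4b), and none was called. Ulk1 and Atg14 turned in control mice in both settings, not called. The difference of the cold responses gained 1 call, a lower response of Ambra1, with upper-quartile factors, and 2 calls, 1 lower (Ambra1) and 1 higher (Gabarapl2), without the 3 libraries that stand apart. Leaving out single libraries gave 32 to 34 calls in control mice (18 to 20 up, 13 to 15 down), 28 to 31 in knockout mice (19 to 21 up, 9 or 10 down) and 0 to 1 for the difference of responses (0 to 1 lower, 0 higher), the 1 being Ambra1 without WT30 mouse 7. Of the 34 calls in control mice, 27 were kept in every alternative other than leaving out single libraries and 30 in every fit without a single library, and of the 30 in knockout mice 21 and 28. Between genotypes 0 of the 42 genes were called at either temperature in any setting run. Over all genes, DESeq2 called 40 genes at thermoneutrality, 162 at 5 °C and 434 for the difference of responses, where edgeR called 14, 24 and 200, and edgeR with no filter called 27 for the last. Leaving out single libraries gave 7 to 93, 7 to 100 and 49 to 371 calls over all genes for these 3 comparisons. No paired analysis was possible because the groups share no replicate number.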
